A study of Mus musculus with 4 samples.

Results

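The 10 genes described here form the core of the circadian clock and its first output: the activators Arntl and Clock, the repressors Per1, Per2, Per3, Cry1 and Cry2, the nuclear receptors Nr1d1 and Nr1d2, and Dbp. They were chosen by symbol, and all 10 were among the 14936 genes of the deposited table. Expression was measured by mRNA sequencing in cultured mouse macrophages derived from bone marrow with M-CSF, the growth factor of that lineage, here at 20 ng/ml. Every culture also received IL-4, the cytokine of the alternative activation state, at 20 ng/ml. There were 4 groups of 1 library each: macrophages labelled Phlpp1-deficient (KO) after 12 h and after 24 h of IL-4, and macrophages labelled wild type (WT) after 12 h and after 24 h. No group went without IL-4, and 1 of the KO labels spells the genotype differently from the other. The labels state neither the hour of day at harvest, nor the deleted part of Phlpp1, the strain, the animals behind each culture, or any step that aligned the cells' clocks.

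In the mammalian clock ARNTL (also called BMAL1) and CLOCK pair on E-box sequences and drive the Per and Cry genes. The PER and CRY proteins return to the nucleus and block that pair. Nr1d1 and Nr1d2 encode REV-ERB alpha and REV-ERB beta, receptors that repress Arntl through ROR elements, and Dbp encodes a factor that activates genes through D-boxes. In tissues with aligned clocks Arntl peaks about when Dbp and Nr1d1 are low. Macrophages carry such a clock, and REV-ERB receptors restrain inflammatory genes in them. PHLPP1, the phosphatase the study is about, was first described in the rat suprachiasmatic nucleus, the brain's clock, under the name SCOP.

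Matches to the letters of these elements are shown first, since factors that bind such elements are among the genes compared below. RefSeq promoter windows on GRCm38.p6, from 250 bases before to 50 bases after a start site, were found for 9 of the 10 genes (13 windows), with no entry for Per2. They were searched on both strands for the E-box CACGTG, the D-box TTANGTAA and the ROR element TAGGTCA. An E-box stood in windows of Per1 and Cry1, a D-box at 2 places in that of Per3 and a ROR element in 1 window of Arntl, and no 2 motifs overlapped. Among all 32851 windows, 7.15% held the E-box, 2.32% the D-box and 2.61% the ROR element, so the matches are a description of letters and not of binding. The stretches below run 5′ to 3′ along the gene's strand, with the matching letters in capitals. Those of Per1 (chr11:69098699-69098948, plus strand), Cry1 (chr10:85185055-85185304, minus strand) and Per3 (chr4:151044666-151044915, minus strand) are the 250 bases before the start, which for Per1 is a start inside the gene span. That of Arntl (chr7:113207529-113207558, plus strand) is 30 bases around its match, which begins at position 31 from the start site.
Per1: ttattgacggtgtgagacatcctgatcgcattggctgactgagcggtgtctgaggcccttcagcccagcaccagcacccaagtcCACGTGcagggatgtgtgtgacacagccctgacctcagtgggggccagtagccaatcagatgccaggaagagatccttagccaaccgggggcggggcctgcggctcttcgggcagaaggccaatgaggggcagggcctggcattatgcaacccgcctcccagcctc
Cry1: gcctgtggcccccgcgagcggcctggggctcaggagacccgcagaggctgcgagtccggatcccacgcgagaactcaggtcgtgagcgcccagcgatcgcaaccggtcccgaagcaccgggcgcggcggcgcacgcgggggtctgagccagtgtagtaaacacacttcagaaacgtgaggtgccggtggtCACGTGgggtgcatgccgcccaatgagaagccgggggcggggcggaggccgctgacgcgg
Per3: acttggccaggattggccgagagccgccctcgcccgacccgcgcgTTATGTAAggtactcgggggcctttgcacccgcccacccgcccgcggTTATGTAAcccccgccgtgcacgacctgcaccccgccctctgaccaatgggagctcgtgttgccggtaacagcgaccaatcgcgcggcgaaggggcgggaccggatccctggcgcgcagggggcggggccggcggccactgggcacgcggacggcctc
Arntl: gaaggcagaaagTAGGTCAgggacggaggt

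On GRCm38 (mm10), the activator genes lie at chr7:113207465-113314126 (Arntl, plus strand) and chr5:76209868-76304792 (Clock, minus). The Per genes lie at chr11:69095217-69109960 (Per1, plus), chr1:91415982-91459324 (Per2, minus) and chr4:151003652-151044665 (Per3, minus), and the Cry genes at chr10:85131700-85185064 (Cry1, minus) and chr2:92403646-92434043 (Cry2, minus). Nr1d1 lies at chr11:98767932-98775333 (minus), Nr1d2 at chr14:18204054-18239127 (minus) and Dbp at chr7:45705088-45710203 (plus). All are gene spans of GENCODE M21, exons and introns together.

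Total counts were 36707999 to 41770309 per library, and the clock genes together took 5575 to 6635 of them. Levels are given below as CPM, each count over its library total after scaling by the trimmed mean of M values (TMM). Phlpp1 went against the labels. It stood at 42.9 and 62.6 CPM in libraries labelled KO at 12 h and 24 h, against 11.9 and 15.6 CPM in those labelled WT, so every direction here is that of the labels as given. The macrophage genes Csf1r, Cd68 and Lyz2 were abundant in every library. Cd68 stood at 2070 and 2104 CPM in libraries labelled KO, against 2161 and 2215 CPM in those labelled WT, and was not called for genotype. Lyz2 stood at 11009 and 10517 CPM in KO, against 14478 and 13265 CPM in WT. It was called lower in KO (log2 fold -0.37, edgeR adjusted p = 3.17e-06), as were 3 others of 9 macrophage markers. Mrc1, of the same list, went the other way, at 1492 and 1097 CPM in KO, against 1034 and 847 CPM in WT. It was called higher in KO (log2 fold 0.45, edgeR adjusted p = 1.97e-06).

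None of the 10 clock genes was called for time or for genotype, beside 2.08% and 9.52% of all genes tested. None differed 2-fold between any pair of libraries, beside 0.136% to 1.05% of genes in the 4 pairs compared below. With shares that low, 0 of 10 does not set the clock genes apart. The activators came out as follows. Arntl stood at 7.64 and 9.95 CPM in libraries labelled KO at 12 h and 24 h, against 9.18 and 9.05 CPM in those labelled WT. The KO library at 12 h was the lowest and the KO library at 24 h the highest, so the WT values lay between the KO values. Clock, the partner of ARNTL, stood at 49.6 and 53.6 CPM in libraries labelled KO, against 47.1 and 44.8 CPM in those labelled WT. Both KO libraries exceeded both WT libraries. Clock was the most highly counted of the 10 genes together with Nr1d2, and its highest library was 1.20-fold above its lowest.

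Among the repressors, Per1, the Per gene that responds fastest to outside signals, stood at 21.6 and 18.9 CPM in libraries labelled KO at 12 h and 24 h, against 22.6 and 22.1 CPM in those labelled WT. Per2, the Per gene whose loss most disturbs rhythms in mice, stood at 2.74 and 3.54 CPM in libraries labelled KO, against 4.07 and 2.77 CPM in those labelled WT. For Per1 both KO values lay below both WT values, while for Per2 the order of the genotypes differed between the times. Per3, a paralog with a smaller part in the loop, stood at 3.21 and 3.78 CPM in libraries labelled KO, against 2.67 and 2.99 CPM in those labelled WT. Cry1, the stronger repressor of the Cry pair, stood at 9.84 and 10.4 CPM in libraries labelled KO, against 9.60 and 11.2 CPM in those labelled WT. Per3 was higher in both KO libraries than in both WT libraries, and Cry1 was higher in both 24 h libraries than in both 12 h libraries. Cry2 stood at 6.39 and 5.90 CPM in libraries labelled KO, against 4.99 and 4.87 CPM in those labelled WT, without overlap of the genotypes.

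The receptors and the output gene completed the set. Nr1d1, the stronger REV-ERB repressor of Arntl, stood at 5.02 and 5.18 CPM in libraries labelled KO at 12 h and 24 h, against 3.97 and 3.79 CPM in those labelled WT. Its paralog Nr1d2 stood at 44.8 and 44.2 CPM in libraries labelled KO, against 47.4 and 44.1 CPM in those labelled WT. Nr1d1 was higher in both KO libraries, and Nr1d2 had the narrowest spread of the 10 genes, 1.07-fold between its lowest and highest library. Dbp stood at 9.01 and 7.51 CPM in libraries labelled KO, against 9.28 and 8.66 CPM in those labelled WT, lower in both 24 h libraries than in both 12 h libraries. The widest spread was that of Per2, at 1.48-fold. Bulk RNA does not tell fewer expressing cells from less RNA per cell.

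**Figure D1:**
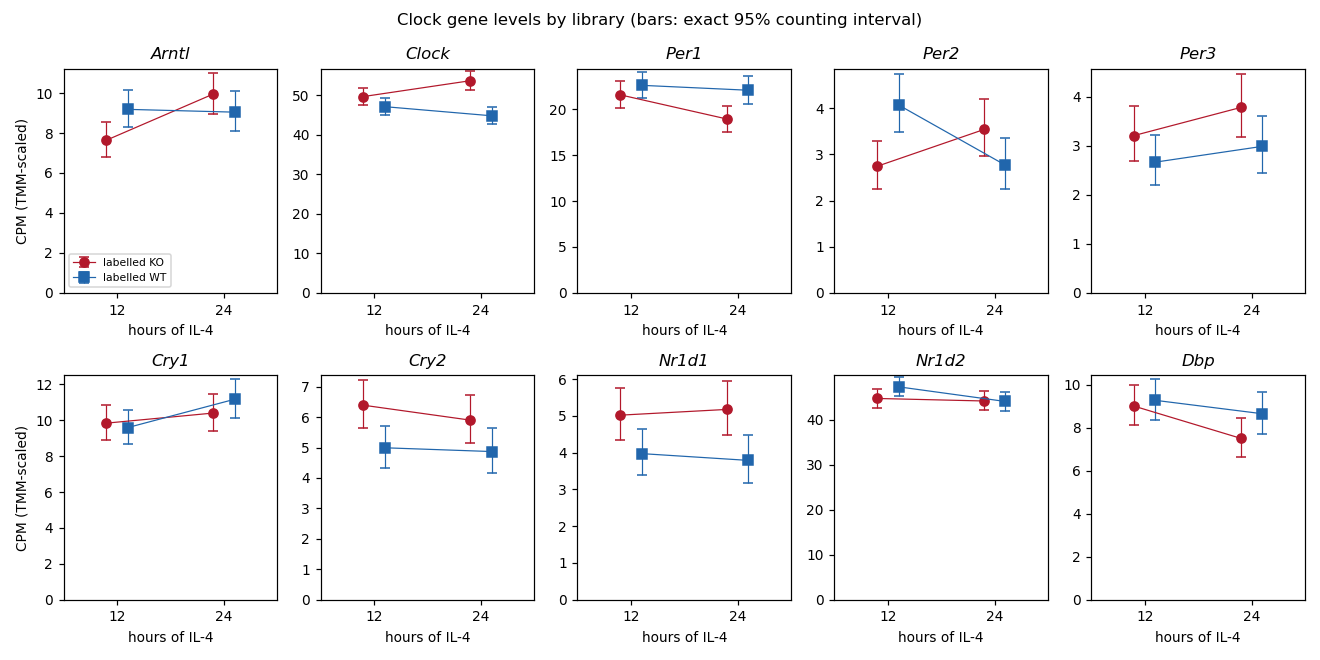
TMM-scaled CPM of each clock gene (vertical axes, from 0) after 12 h and 24 h of IL-4, in the libraries labelled KO (red circles) and WT (blue squares), 1 library per point. Bars are exact 95% Poisson intervals of the count and cover counting error only. Most lines are near flat. Those of Arntl, Per2, Cry1 and Nr1d2 cross. At both times Clock, Per3, Cry2 and Nr1d1 are higher in the libraries labelled KO, and Per1 and Dbp lower.

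Counts set how finely these levels are known. The fewest counts were those of Per2 and Per3, 100 to 168 and 108 to 141 per library, and the most those of Clock and Nr1d2, 1594 to 2026. The labels name no molecular identifiers, so PCR copies are not separate molecules and intervals cover counting error only. Nr1d1 shares 263 exon bases with Thra, a thyroid hormone receptor gene, and Dbp shares 539 with Sphk2, a sphingosine kinase gene, each on the opposite strand. Also on the opposite strand, Cry2 shares 295 exon bases with D930015M05Rik and Arntl shares 33 with Gm45355. Neither of those names is in the deposited table. Strand use in the counting is not stated, so the values of Nr1d1, Dbp, Cry2 and Arntl are uncertain to that extent. Thra, with 490 and 374 counts in the libraries labelled KO at 12 h and 24 h, against 491 and 329 in those labelled WT, was not called for genotype (log2 fold 0.07, edgeR adjusted p = 0.865) or for time (log2 fold -0.32, 95% interval -0.64 to -0.0031, adjusted p = 0.405). Its time interval lay below 0, while that of Nr1d1 held 0, and what Thra reads add to Nr1d1 was not tested. Sphk2 had 3914 and 3261 counts in the libraries labelled KO, against 3940 and 3502 in those labelled WT, many more than Dbp. It was not called for genotype (log2 fold -0.07, adjusted p = 0.702) or for time (log2 fold -0.06, adjusted p = 0.862).

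Levels can be set between genes only per length, for which the deposited FPKM values serve. Nr1d2 was the highest, at 8.84 to 9.64 FPKM over the 4 libraries, followed by Clock at 4.38 to 5.48 FPKM and Dbp at 3.07 to 3.72 FPKM. These ranges did not overlap. Cry1 at 2.38 to 2.73 FPKM and Per1 at 2.27 to 2.64 FPKM overlapped each other, as did Nr1d1 at 1.34 to 1.90 FPKM and Cry2 at 1.14 to 1.58 FPKM. Per2 (0.442 to 0.661 FPKM), Per3 (0.387 to 0.565 FPKM) and Arntl (0.406 to 0.525 FPKM) formed a lowest set whose ranges overlapped. The place of Arntl depended on the length used. The deposited FPKM of Arntl implies a length of 19267 bases, against 7523 bases of merged exons in GENCODE M21 and 3995 bases of its longest transcript there. With the longest transcript Arntl came to 1.96 to 2.53 FPKM and ranked 6th in place of 10th. With merged exons it came to 1.04 to 1.34 FPKM and ranked 7th. Values on GENCODE lengths keep the deposited counts, and would be too high where those counts come from a longer gene model. Per1, with an implied length of 8474 bases against 5631 merged, ranked 5th on deposited values, 2nd with merged exons and 4th with the longest transcript. Nr1d2 ranked 1st with each of the 3 lengths. The choice of length changes the order of genes but no comparison between libraries. The implied lengths of Arntl and Per1 exceed their merged exons the most. Whether their counts hold reads from outside those exons was not tested, and would bear on their comparisons between libraries.

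**Figure D2:**
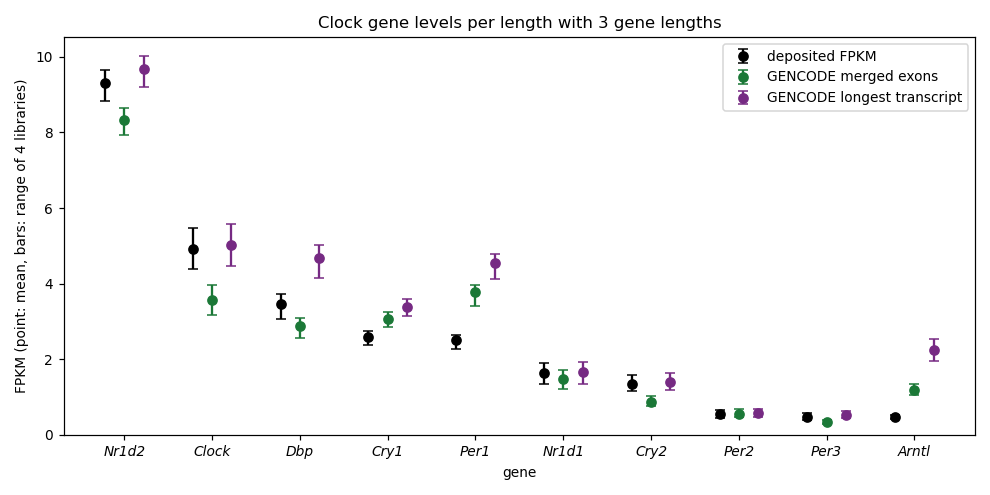
Level of each clock gene in FPKM (vertical axis, from 0), with the length implied by the deposited values (black), the merged exons (green) or the longest transcript (purple) of GENCODE M21. Points are means and bars the range of the 4 libraries. The deposited counts were used with every length. Arntl moves from 0.465 FPKM on the deposited scale to 2.24 FPKM with its longest transcript, while Nr1d2 stays highest.

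The first comparison asks whether the clock genes differed between 12 h and 24 h of IL-4, times that stand 12 h apart and may fall at different clock phases. The test was edgeR's quasi-likelihood test of time in a model with genotype over the 4 libraries, two-sided, adjusted over 10993 genes by the Benjamini-Hochberg method, a gene being called at an adjusted p under 0.05. That model leaves 1 residual degree of freedom. With 1 library per group, the remainder mixes noise with any time effect that is unlike in KO and WT. The p-values used 28.8 degrees of freedom in total, so they rest mostly on scatter pooled over genes in these 4 libraries. That scatter may be technical. A time effect unlike in KO and WT would count as scatter and could hide a gene's change. The time test called 229 genes, 2.08% of those tested (0.955% higher and 1.13% lower at 24 h), and 0 of the 10 clock genes. With no adjustment, 12.2% of genes and 0 clock genes had a p under 0.05, and DESeq2 also called 0 of the 10 (0 at an unadjusted p under 0.05). The members' median size of the log2 fold was 0.10, the same as the 0.10 over all genes tested.

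For the arms that run opposite to each other in an aligned clock, the time folds were small. Arntl had a log2 fold of 0.18 for 24 h over 12 h (95% interval -0.17 to 0.53, edgeR adjusted p = 0.768), Dbp one of -0.18 (-0.53 to 0.17, adjusted p = 0.761) and Nr1d1 one of -0.01 (-0.48 to 0.46, adjusted p = 0.994). Nr1d2 came to -0.06 (-0.24 to 0.12) and Clock to 0.02 (-0.16 to 0.20), the tightest intervals of the set. Among the repressors the log2 folds were 0.20 for Per3, 0.15 for Cry1, -0.08 for Cry2, -0.10 for Per2 and -0.11 for Per1. The intervals lay within 2-fold in either direction for 10 of the 10 genes and within 1.5-fold for 8, with Per2 (-0.68 to 0.49) and Per3 (-0.36 to 0.76) reaching further. A p that misses the threshold does not show that levels were equal at the 2 times. Levels of 24 h and 12 h libraries did not overlap for Cry1, Nr1d2 and Dbp, 3 of 10 genes, beside 32.0% of all genes tested.

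Markers of other cell types also moved with time. Neutrophil markers were called lower at 24 h for 3 of 7 tested (Mpo with a log2 fold of -0.81, S100a8 with -0.45 and S100a9 with -0.42). The others tested were not called: Elane (-0.60), Camp (-0.43), Ltf (0.0047) and Ngp (0.13), so the list did not move 1 way. The summed level of the list was 675 and 951 CPM in the 24 h libraries labelled KO and WT, against 790 and 1045 CPM in the 12 h libraries. Macrophage markers were called lower for 2 of 9, Adgre1 (log2 fold -0.28) and Mrc1 (-0.37), with sums of 17944 and 21372 CPM at 24 h, against 19300 and 22804 CPM at 12 h. The other macrophage markers were not called, with log2 folds from -0.16 for Fcgr1 to 0.18 for Mertk. Of 8 stromal markers 1, Dcn, was called higher (log2 fold 0.76), with sums of 185 and 111 CPM at 24 h, against 153 and 93.6 CPM at 12 h. Of the tested markers of mast cells, basophils and eosinophils, of lymphocytes and of proliferation, 0 were called for time. The part of these markers in the clock genes' time folds was not tested.

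**Figure D3:**
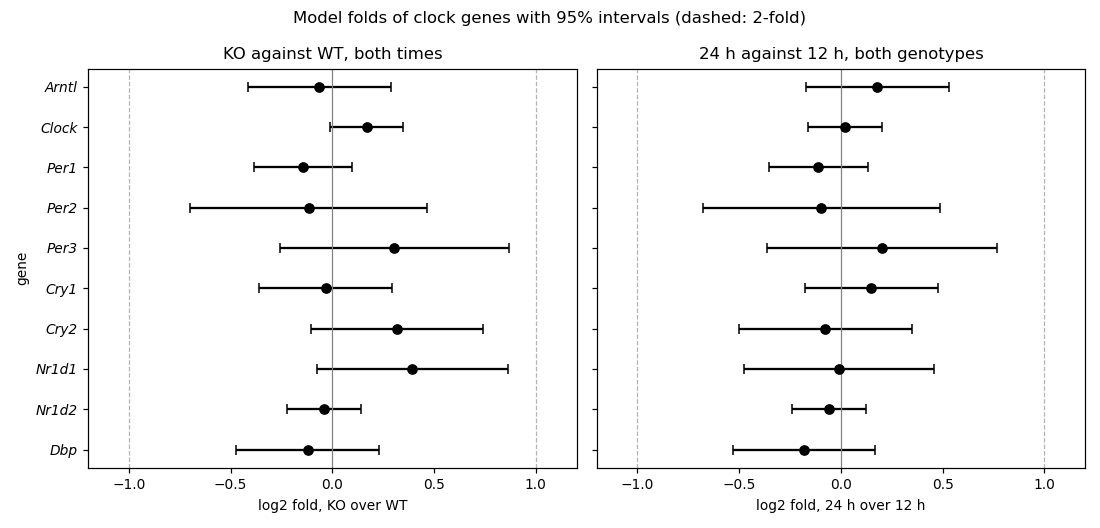
Log2 folds of the clock genes (horizontal axes) from the model over the 4 libraries, KO over WT on the left and 24 h over 12 h on the right, with 95% intervals as bars and 2-fold as dashed lines. Every interval includes 0 and none reaches 2-fold.

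Taken within a genotype, each time ratio rests on 1 library a side and has no replicate check. Folds between 2 libraries are given with exact 95% counting intervals from the binomial distribution, which compare the libraries and not the conditions. In the libraries labelled KO, Arntl at 24 h was 1.30-fold its level at 12 h (1.12 to 1.52), Clock 1.08-fold (1.01 to 1.15), Per1 0.878-fold (0.794 to 0.970) and Dbp 0.833-fold (0.711 to 0.976). In the libraries labelled WT these genes had intervals that held 1: Arntl was 0.985-fold (0.847 to 1.14), Clock 0.951-fold (0.890 to 1.02), Per1 0.976-fold (0.887 to 1.07) and Dbp 0.933-fold (0.801 to 1.09). The genes whose WT intervals lay off 1 were Per2 at 0.679-fold (0.525 to 0.875), Nr1d2 at 0.931-fold (0.871 to 0.995) and Cry1 at 1.16-fold (1.01 to 1.34). A log2 ratio of at least 1 in size, on CPM plus 1, was reached by 0 clock genes in either genotype, beside 0.261% of genes in KO and 0.136% in WT.

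The ratio of 2 genes within a library needs no scaling between libraries and shows the balance of the arms. Arntl counts over Dbp counts came to 0.848 (0.727 to 0.989) and 1.32 (1.13 to 1.55) in the libraries labelled KO at 12 h and 24 h, against 0.990 (0.856 to 1.14) and 1.04 (0.892 to 1.22) in those labelled WT. The KO libraries lay on either side of the WT libraries, and their intervals did not overlap each other. Arntl over Nr1d1 came to 1.52 (1.27 to 1.82) and 1.92 (1.61 to 2.30) in the libraries labelled KO, against 2.31 (1.92 to 2.79) and 2.39 (1.95 to 2.94) in those labelled WT. Here both KO libraries were below both WT libraries, with the KO library at 24 h overlapping the WT intervals. Arntl over Per1 was 0.354 (0.310 to 0.403) and 0.525 (0.462 to 0.597) in the libraries labelled KO, against 0.406 (0.360 to 0.458) and 0.410 (0.359 to 0.467) in those labelled WT. Arntl over Nr1d2 was 0.171 (0.151 to 0.193) and 0.225 (0.201 to 0.252) in the libraries labelled KO, against 0.194 (0.173 to 0.217) and 0.205 (0.182 to 0.231) in those labelled WT. In both of these ratios the KO library at 12 h was the lowest and that at 24 h the highest, as for Arntl itself. Every ratio here has Arntl as its numerator, so the ratios are not independent of each other. Arntl over Per2 went the other way, at 2.79 (2.24 to 3.49) and 2.81 (2.30 to 3.45) in the libraries labelled KO, against 2.26 (1.88 to 2.72) and 3.27 (2.61 to 4.13) in those labelled WT. There the WT libraries lay on either side of the KO libraries.

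**Figure D4:**
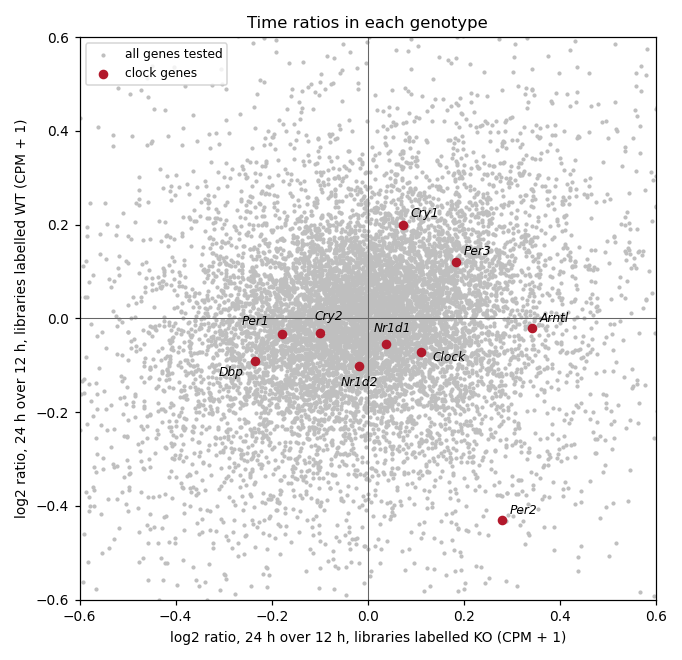
Log2 ratios of 24 h over 12 h, from CPM plus 1, in the libraries labelled KO (horizontal axis) and WT (vertical axis), for all genes tested (grey) and the clock genes (red, named). A further 387 genes lie outside the axes, which end at 0.6. Clock genes sit within the grey cloud, Arntl farthest to the right at 0.34 and Per2 lowest at -0.43.

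The other comparison asks whether the clock genes differed between macrophages labelled KO and WT. In the same model with time as the second term, 1046 genes were called for genotype, or 9.52% of 10993, of which 459 were higher and 587 lower in KO. With library totals as the only scaling the split was 515 higher and 324 lower. Of the 10 clock genes 0 were called by edgeR, with 0 at p under 0.05 before adjustment (20.8% of genes), and 0 by DESeq2 (0 at an unadjusted p under 0.05). The largest log2 folds were those of Nr1d1 at 0.39 (95% interval -0.08 to 0.86, edgeR adjusted p = 0.356), Cry2 at 0.32 (-0.11 to 0.74, adjusted p = 0.424) and Per3 at 0.30 (-0.26 to 0.87, adjusted p = 0.612). Clock, at 0.17 (-0.01 to 0.35), had the lowest adjusted p of the set, 0.290. The negative folds were log2 -0.14 for Per1, -0.12 for Dbp, -0.12 for Per2, -0.06 for Arntl, -0.04 for Nr1d2 and -0.03 for Cry1. Each interval stayed within 2-fold for 10 of the 10 genes, and within 1.5-fold for 6.

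KO and WT levels did not overlap for 5 of the 10 genes (Clock, Per3, Cry2 and Nr1d1 higher in KO, Per1 lower), beside 44.7% of all genes tested. By counting error alone, Nr1d1 was 1.26-fold higher in the KO than in the WT library at 12 h (1.02 to 1.56) and 1.37-fold higher at 24 h (1.09 to 1.71), the one gene of the 10 with intervals above 1 at both times. Cry2 was 1.28-fold higher at 12 h (1.06 to 1.54) and 1.21-fold at 24 h (0.990 to 1.49). Over the 40 member-by-pair folds of this and the time comparison, 7 intervals lay above 1 and 7 below. No share of all genes with such intervals is given, so neither these counts nor Nr1d1 can be called unusual. At 2-fold and over, by log2 ratio on CPM plus 1, there were 0 clock genes at either time, beside 1.04% of genes at 12 h and 1.05% at 24 h.

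Per2 had the largest change of genotype ratio between the times. Its log2 ratio of KO over WT, on CPM plus 1, was -0.44 at 12 h and 0.27 at 24 h, a difference of 0.71. With a pseudocount of 0.5 CPM that difference was 0.80, and with 5 CPM it was 0.37. The median size of that difference was 0.14 over the 10 clock genes and 0.15 over all genes tested, of which 2.41% were at least as far from 0 as Per2, all at a pseudocount of 1 CPM. The difference of Per2 cannot be tested with 1 library per group. It rests on 112 and 132 counts in the libraries labelled KO and 168 and 100 in those labelled WT. Per2 was picked as the farthest of the 10 genes and its counts are low, so the 2.41% does not show it to be unusual. For Arntl the log2 ratios of KO over WT were -0.24 at 12 h and 0.12 at 24 h.

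Around the core, 40 further clock genes in 8 lists were examined, of which 33 reached the 1 CPM in 2 libraries needed for the test. For time, 0 of the 33 were called by edgeR and 0 by DESeq2. Wee1, a clock-driven cell cycle kinase gene, came closest, at 17.3 and 13.3 CPM in libraries labelled KO at 12 h and 24 h, against 14.4 and 10.9 CPM in those labelled WT (log2 fold -0.39, edgeR adjusted p = 0.182). For genotype, 4 were called higher and 3 lower in KO, beside 4.18% and 5.34% of all genes. The lists were chosen with earlier results of these data known, so these counts cannot show an excess over those shares. Of the lower genes, Cx3cr1 reached 1 CPM only in the libraries labelled WT. Those called were of the repressor, D-box, PER-regulator and macrophage target lists, and 0 of 5 corepressors and PER partners and 0 of 6 rhythmic output genes were called. Rora, the activator that competes with REV-ERB at ROR elements, stood at 15.8 and 16.6 CPM in libraries labelled KO, against 16.8 and 15.3 CPM in those labelled WT (log2 fold 0.01, adjusted p = 0.975).

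Genes of factors that bind E-boxes or D-boxes were among those called. Whether these factors bind the stretches shown above was not tested. Nfil3, the repressor that competes with DBP at D-boxes, stood at 70.6 and 67.5 CPM in libraries labelled KO at 12 h and 24 h, against 50.9 and 51.4 CPM in those labelled WT. It was higher in both KO libraries (log2 fold 0.43, SE 0.08, edgeR adjusted p = 0.000591). Its activating counterpart Tef, a relative of DBP, was not called (log2 fold 0.09, adjusted p = 0.651). The E-box repressor genes Bhlhe40 and Bhlhe41, also called DEC1 and DEC2, went opposite ways. Bhlhe40 was higher at 219 and 246 CPM in libraries labelled KO, against 171 and 196 CPM in those labelled WT (log2 fold 0.34, SE 0.07, adjusted p = 0.000739). Bhlhe41 was lower at 136 and 143 CPM in KO, against 168 and 181 CPM in WT (log2 fold -0.32, SE 0.07, adjusted p = 0.00217). KO and WT levels did not overlap for any of the 3 genes, beside 44.7% of all genes tested. That rests on the same values as the calls and adds no support to them. Fits of 3 libraries, which also left out time, ended the call of Nfil3 without WT at 12 h (0.43, adjusted p = 0.170) and without WT at 24 h (0.44, adjusted p = 0.159). They ended that of Bhlhe40 without KO at 24 h (0.25), WT at 12 h (0.24) and WT at 24 h (0.44), and that of Bhlhe41 without KO at 12 h (-0.29), WT at 12 h (-0.38) and WT at 24 h (-0.27). Leaving out time alone ended the calls of Bhlhe40 (adjusted p = 0.121) and Bhlhe41 (adjusted p = 0.0806).

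Among 11 tested regulators of PER and CRY, Usp2 was lower and Prkaa1 higher in KO. Usp2, a rhythmic deubiquitinase gene, stood at 1.71 and 2.09 CPM in libraries labelled KO, against 3.73 and 3.90 CPM in those labelled WT (log2 fold -1.01, SE 0.30, edgeR adjusted p = 0.0251). Prkaa1, which encodes a catalytic subunit of the kinase AMPK, stood at 67.6 and 72.4 CPM in KO, against 55.9 and 61.0 CPM in WT (log2 fold 0.26, SE 0.08, adjusted p = 0.0435). Both calls were lost with folds as large, log2 -1.01 and 0.26 with DESeq2 (adjusted p = 0.296 and 0.269) and -1.004 and 0.26 with time left out (0.115 and 0.196). That of Usp2 was also lost with library totals only (-0.95, adjusted p = 0.0613), that of Prkaa1 with totals and scaling factors recomputed after the filter (0.27, adjusted p = 0.0550), and both without any 1 of the libraries. In the fits of 3 libraries the log2 fold of Usp2 was -0.87 and -1.15 when the 12 h or the 24 h library labelled KO was dropped, and -1.04 and -0.97 when that labelled WT was. That of Prkaa1 was 0.31 and 0.21 with a KO library dropped, and 0.20 and 0.32 with a WT library dropped. The casein kinase genes Csnk1d and Csnk1e, whose products mark PER for decay, were not called, with log2 folds of 0.06 and -0.07.

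The genes reported in mice as repressed by REV-ERB in macrophages did not move as a set. Ccl2, a monocyte chemokine gene, was higher at 37.3 and 30.4 CPM in libraries labelled KO, against 19.4 and 15.8 CPM in those labelled WT (log2 fold 0.94, SE 0.11, edgeR adjusted p = 3.00e-07). Cx3cr1, the fractalkine receptor gene, was lower, with 9 and 6 counts in KO against 58 and 87 in WT (log2 fold -3.25, SE 0.52, adjusted p = 5.32e-05). It stood at 0.22 and 0.16 CPM in KO, against 1.41 and 2.41 CPM in WT. Cx3cr1 thus passed the filter of 1 CPM only through the libraries where it was high, and its call is not independent of that filter. Mmp9, Nlrp3 and Il1b were not called, with log2 folds of 0.07, -0.29 and -0.30, and Il6 stayed under the count filter. Stromal markers moved with genotype as well: 7 of 8 tested were called higher in KO and 0 lower. Their summed level was 153 and 185 CPM in libraries labelled KO, against 93.6 and 111 CPM in those labelled WT, and none of the 9 was at 0, with Lum lowest at 3 and 3 counts in KO, against 13 and 12 in WT. Among macrophage markers 4 of 9 were called lower and 1 higher in KO, with summed levels of 19300 and 17944 CPM in KO, against 22804 and 21372 CPM in WT. Neutrophil markers were called lower for 5 of 7 tested, with sums of 790 and 675 CPM in KO, against 1045 and 951 CPM in WT. Of 4 tested mast cell, basophil and eosinophil markers 2 were called lower in KO (sums of 3.58 and 3.86 CPM in KO, against 7.03 and 8.69 CPM in WT). Those 2, Cpa3 and Prss34, reached 1 CPM only in the libraries labelled WT, so they too passed the filter only through the group where they were high. Of 6 proliferation markers 3 were called higher (119.6 and 118.2 CPM, against 98.6 and 83.01 CPM), and 0 of 1 lymphocyte marker was called (list sums of 3.55 and 2.84 CPM, against 5.09 and 3.24 CPM). The part of these other cell markers in the genotype calls was not tested.

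**Figure D5:**
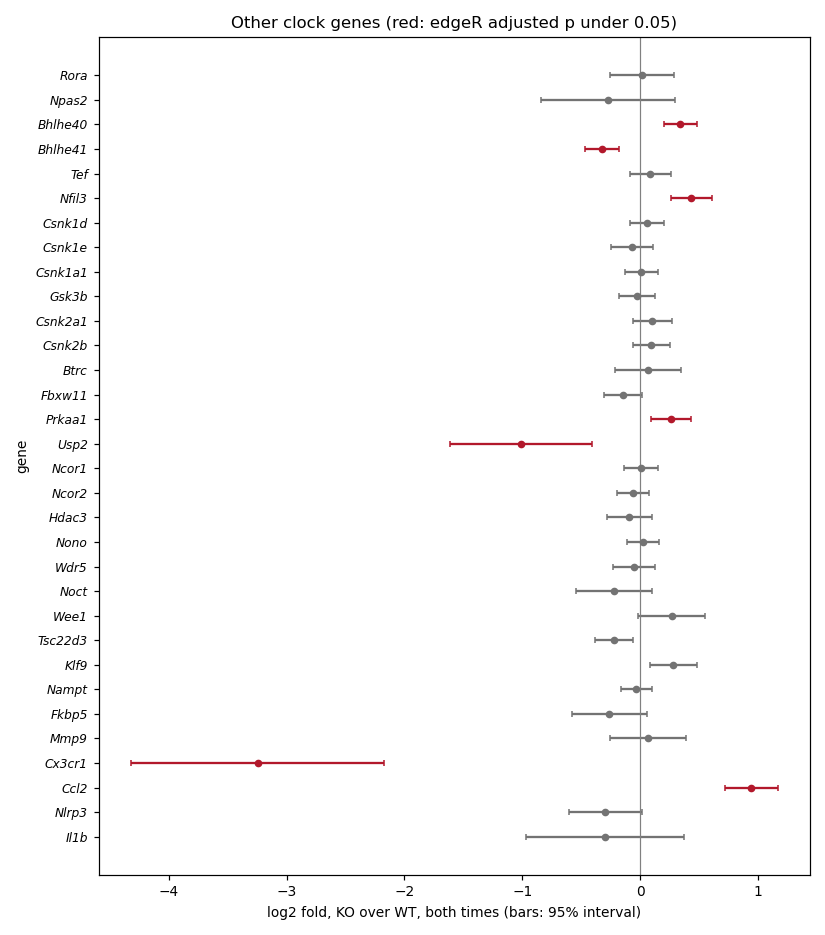
Log2 folds of KO over WT across both times (horizontal axis) for 32 of the 33 tested genes of the other clock lists, with 95% intervals as bars. Red marks the 7 genes with an edgeR adjusted p under 0.05: Bhlhe40, Nfil3, Prkaa1 and Ccl2 to the right of 0, and Bhlhe41, Usp2 and Cx3cr1 to the left.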

How the data were processed

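RNA from 4 macrophage libraries was analysed from 1 table that the authors deposited, which gives each gene an unnormalised read count and an FPKM value in every library. HISAT2, StringTie 1.3.0, edgeR and the mm10 genome are named in the submitters' processing notes without their roles. Which tool counted, and on which annotation, is not given in those sources. The FPKM values deposited by the authors are the count over library total and a fixed length per gene (largest relative deviation 1.13e-13). They were used only to set levels between genes. Everything else was computed from the deposited counts with TMM scaling in edgeR 4.0.16 under R 4.3.3, legacy quasi-likelihood fit. Tests covered genes that reached 1 CPM in 2 or more libraries. Ratios between 2 libraries used a pseudocount of 1 CPM, which understates those of low genes. Model intervals are the fold plus or minus its SE times the t quantile, with the SE taken as the fold over the square root of F. DESeq2 1.42.0, other scalings and filters and leaving out each library were alternatives. Positions come from GENCODE M21 and RefSeq, both on GRCm38. Named are the 10 members, each called gene of the other lists, some uncalled ones with their values, and the 3 genes nearest in pattern to Arntl, Nr1d1, Per2 and Dbp. The members and lists were chosen with earlier results of these data known. With 1 library per group, nothing shows the spread between cultures. One gene of the other clock lists is counted but not reported here by name.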

Additional observations from a re-analysis of the deposited data

Results flagged for a closer look

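For 6 of the 10 clock genes a contrast had opposite signs in 2 groups of libraries, each sign resting on 1 library a side. None of these differences was tested, and several of the ratios lie near 0. No share of all genes with such opposite signs is given, so 6 of 10 does not set the clock genes apart. All values are log2 ratios on CPM plus 1. The time ratio of Arntl was 0.34 in KO and -0.020 in WT, that of Clock 0.11 in KO and -0.071 in WT, that of Per2 0.28 in KO and -0.43 in WT, and that of Nr1d1 0.037 in KO and -0.055 in WT. The genotype ratio of KO over WT changed sign between 12 h and 24 h for Arntl (-0.24 and 0.12), Per2 (-0.44 and 0.27), Cry1 (0.033 and -0.094) and Nr1d2 (-0.079 and 0.0035). For Per2 the counting interval lay off 1 in WT for time and at 12 h for genotype, and held 1 on the other side of both.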

How the results depend on the processing

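No clock gene was called for genotype or time in the reported fits or in any of the 12 alternatives to each (scaling, filter, tool, the other factor or a library left out, and 2 settings added after seeing the data), in which the lowest adjusted p was 0.147 for genotype and 0.706 for time. With a minimum of 5 CPM this covers 8 of the 10, since Per2 and Per3 were not tested. The number of all genes called for genotype, 1046, was 504 with DESeq2, 259 with time left out and 146 to 576 with 1 library and time left out. For time, 229 became 141 with library totals only, 105 with DESeq2, 0 with genotype left out and 0 to 0 with 1 library left out as well; the cause was not tested. With 0 calls over all genes, those fits say nothing on the members' stability. The 7 other clock genes called for genotype became 3 with time left out and 1 to 4 with 1 library left out as well, and 0 were called for time in any setting. Folds near 0 changed sign without being called. With library totals only, the genotype fold became 0.024 for Cry1 and 0.018 for Nr1d2. Over fits without 1 library, genotype folds were -0.25 to 0.13 for Arntl, -0.38 to 0.18 for Per2, -0.14 to 0.077 for Cry1, -0.091 to 0.013 for Nr1d2 and -0.26 to 0.0061 for Dbp. Time folds over such fits were -0.11 to 0.15 for Clock, -0.37 to 0.20 for Per2, -0.25 to 0.11 for Cry2 and -0.25 to 0.20 for Nr1d1. Ratios between 2 libraries moved by less than their counting intervals under the alternatives run, although the difference between Per2's genotype ratios, 0.71, was 0.80 with a pseudocount of 0.5 CPM and 0.37 with 5 CPM. No paired analysis was possible because each group had 1 library and the labels give no replicate numbers.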

Other observations

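Ciart encodes CHRONO, a repressor of the ARNTL and CLOCK pair, and lay under the count filter. It had 19 and 32 counts in the libraries labelled KO at 12 h and 24 h, against 7 and 39 in those labelled WT. Between times it was 1.84-fold higher at 24 h in KO (exact 95% counting interval 1.01 to 3.44) and 6.36-fold higher in WT (2.81 to 16.9). With no filter, edgeR's adjusted p for time was 0.377 (log2 fold 1.68, unadjusted p = 0.0278). Il1b, an inflammatory cytokine gene, had 81 and 88 counts in KO, against 69 and 148 in WT, a fold of 24 h over 12 h of 1.19 (0.870 to 1.63) in KO and 2.45 (1.83 to 3.31) in WT. Its adjusted p for time was 0.304.

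The genes whose profile over the 4 libraries was most like that of Per2 were Fam199x, Tcf4 and 2700049A03Rik, with root mean square log2 differences of 0.03, 0.03 and 0.04, and 7 of 9236 genes lay within 0.05. The nearest to Arntl were Appbp2, Rpf1 and Inpp1, to Nr1d1 Stxbp3, Ptpre and Stk11ip, and to Dbp Srd5a3, Mrps26 and Ubb, with 114, 90 and 453 genes within 0.05. The likeness over 4 libraries is given as a description.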
